A study of Mus musculus with 12 samples.

Results

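The vascular endothelial growth factor (VEGF) and angiopoietin genes of cultured mandibular fibrochondrocytes were examined as a group of 10 genes, selected by symbol from the 29862 genes in the deposited table: the ligands Vegfa, Vegfb, Vegfc, Vegfd and Pgf, the receptors Flt1 and Kdr, and Angpt1, Angpt2 and Angptl4. All 10 were found, and all 10 passed the filter on low counts that left 18703 genes to test. RNA-seq was performed on immortalized mandibular fibrochondrocytes, cells of the mandibular condylar cartilage isolated from C57BL/6J pups aged 10 to 14 days and carried as a clone with hTERT and GFP. The control line was wild type at Cspg4, whose protein NG2/CSPG4 is a transmembrane proteoglycan. The NG2|EDmut line was made from the immortalized cells by CRISPR/Cas9 truncation of the type VI collagen-binding region of the NG2/CSPG4 ectodomain. Each line was cultured in serum-supplemented medium (AMEM with heat-inactivated fetal bovine serum) and under serum starvation (Optimem), with 3 libraries in each of the 4 groups. All 4 groups therefore carry hTERT and GFP, were grown with L-glutamine, penicillin and Plasmocin, and come from 1 immortalized clone, and NG2|EDmut is 1 edited clone, so that the edit and the clone cannot be told apart. Serum-supplemented cells were in AMEM and starved cells in Optimem, so the loss of serum and the change of base medium cannot be told apart. The length of starvation before RNA extraction was not stated in the sources used here.

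VEGF ligands are secreted dimers that act on tyrosine kinase receptors of endothelial cells. VEGF-A is the main driver of blood vessel sprouting through VEGFR2 (Kdr), while VEGFR1 (Flt1) also binds VEGF-B and placental growth factor (Pgf) and can hold ligand back from VEGFR2. VEGF-C and VEGF-D act on VEGFR3 (Flt4) and drive the growth of lymphatic vessels. Angiopoietin 1 activates the receptor TIE2 (Tek) and steadies vessels, and angiopoietin 2 can oppose it. ANGPTL4 is a secreted inhibitor of lipoprotein lipase whose gene responds to PPAR factors and to low oxygen. In growth cartilage, VEGF-A from chondrocytes guides the entry of vessels from the bone.

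Promoter sequences were available for 7 of the 10 members, in 9 windows, and not for Angpt1, Angpt2 or Angptl4. Those of Vegfa, the most abundant ligand transcript, and of Vegfc and Vegfd, the lymphatic ligands that were lower in NG2|EDmut cells in both media, are shown so that the ligands that differ in level can be compared by sequence. Each runs from 250 bases before to 50 bases after a transcription start (RefSeq, GRCm38.p6), read along the strand of the gene, with the GC box GGGCGG or its reverse complement CCGCCC in capitals. The Vegfa window is chr17:46032328-46032627 on the minus strand, the Vegfc window is chr8:54077282-54077581 on the plus strand, and the Vegfd window is chrX:164373272-164373571 on the plus strand.
Vegfa: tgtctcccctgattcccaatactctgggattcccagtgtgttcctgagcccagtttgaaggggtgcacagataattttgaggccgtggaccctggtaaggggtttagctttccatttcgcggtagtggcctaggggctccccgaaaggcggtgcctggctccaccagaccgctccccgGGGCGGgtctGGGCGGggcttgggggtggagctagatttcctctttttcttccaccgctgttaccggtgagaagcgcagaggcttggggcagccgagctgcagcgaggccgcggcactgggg
Vegfc: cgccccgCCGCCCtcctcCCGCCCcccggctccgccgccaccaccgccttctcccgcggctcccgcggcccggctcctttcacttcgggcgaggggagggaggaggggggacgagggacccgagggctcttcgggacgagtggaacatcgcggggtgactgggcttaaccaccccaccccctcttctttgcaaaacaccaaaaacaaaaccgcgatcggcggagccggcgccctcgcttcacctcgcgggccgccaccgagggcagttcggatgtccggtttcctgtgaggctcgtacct
Vegfd: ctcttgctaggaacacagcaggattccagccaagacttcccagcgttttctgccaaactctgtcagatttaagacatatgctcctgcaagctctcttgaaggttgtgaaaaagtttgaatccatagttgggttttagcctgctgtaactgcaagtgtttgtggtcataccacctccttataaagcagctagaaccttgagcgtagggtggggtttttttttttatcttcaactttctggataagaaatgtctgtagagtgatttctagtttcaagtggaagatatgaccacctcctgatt
The Vegfa and Vegfc windows each held 2 GC boxes, and the Vegfd window held none. G and C made up 62.0% of the Vegfa window, 70.3% of the Vegfc window and 42.0% of the Vegfd window, beside a median of 52.7% over all 32851 windows in the reference table. On either strand, GGGCGG was present in 7 of the 9 member windows and in 35.7% of all windows. The hypoxia response core ACGTG was present in 1 of the 9, a second Vegfa window inside the gene, and in 19.6% of all windows. The nuclear receptor element AGGTCA was present in 1 of the 9, that of Vegfb, and in 16.3% of all windows. The AP-1 element TGACTCA was present in 0 of the 9 and in 5.2% of all windows. These letter matches describe the windows only.

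Vegfa and Vegfb carried most of the VEGF ligand transcript in every library. In FPKM, the length-scaled unit in which different genes can be compared, the mean over the 12 libraries was 31.1 for Vegfa, 14.0 for Vegfb, 1.78 for Vegfd, 1.2 for Pgf and 0.506 for Vegfc. Angpt1 was at a mean of 1.33 FPKM, Angptl4 at 0.282 FPKM and Flt1 at 0.144 FPKM. Angpt2 at 0.0352 FPKM and Kdr at 0.0112 FPKM were close to the lower limit of the table. Each ligand thus averaged above Flt1 and Kdr, although Vegfc was close to Flt1 in NG2|EDmut cells, at 0.203 against 0.155 FPKM in serum and 0.156 against 0.0875 FPKM under starvation. Of 16 endothelial markers, between 13 and 14 averaged below 1 CPM (estimated counts scaled to a common library size by TMM) in each group, and Eng alone made up most of their summed level, 41.8 to 70.5 CPM. The endothelial cadherin gene Cdh5 lay between 0 and 0.403 CPM. The fibrochondrocyte and skeletal markers summed to between 40600 and 54500 CPM, with the collagen genes Col1a1 and Col1a2 highest. Of these 12 markers, 3 or 4 averaged below 1 CPM in each group.

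Library totals lay between 60277881 and 77172479 estimated counts. Within a group, the percentage of tested genes that differed more than 2-fold between replicates was 0.246% to 1.41%, except that control serum-supplemented replicate 1 differed from replicates 2 and 3 at 7.80% and 8.93% of genes. Results that rest on this library are given with and without it. Transcript of Cspg4, the edited gene, was at 178, 135 and 84.2 CPM in control cells in serum, at 96.7, 53.9 and 102 CPM in starved control cells, at 251, 220 and 151 CPM in NG2|EDmut cells in serum, and at 202, 232 and 251 CPM in starved NG2|EDmut cells. Its log2 fold change in NG2|EDmut against control cells was 0.65 in serum (SE 0.29, edgeR adjusted p = 0.111) and 1.44 under starvation (SE 0.29, edgeR adjusted p = 0.00214). A truncating edit need not lower the transcript, and gene-level counts do not show the truncation itself. In bulk RNA, fewer cells of a type and less RNA per cell cannot be told apart.

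**Figure D1:**
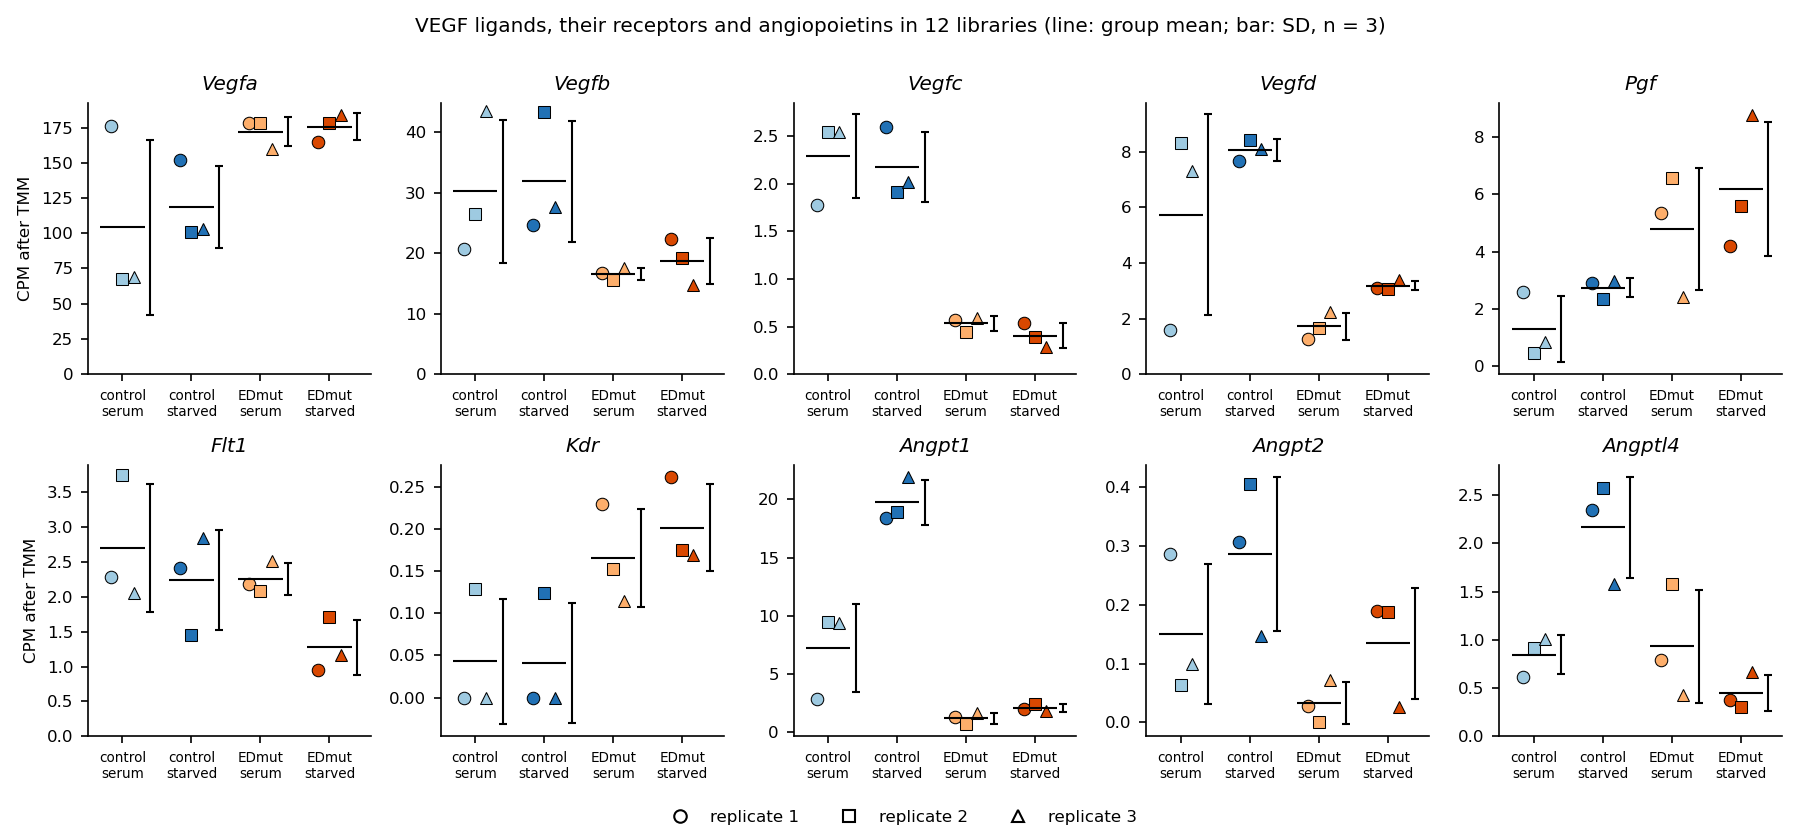
CPM after TMM of the 10 members in each library, 1 panel per gene with its own linear axis. Points are libraries (shape gives the replicate), lines are group means and bars are SD with n = 3. Vegfc and Angpt1 are lower in all NG2|EDmut libraries than in any control library. Control serum-supplemented replicate 1 lies apart from its group for Vegfa, Vegfd, Pgf and Angpt1, and for Angpt2 at few counts.

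NG2|EDmut cells in serum held less transcript of 4 secreted ligands of this group than control cells and more of 1. In NG2|EDmut against control cells in serum, 5 of the 10 members passed the test (edgeR's quasi-likelihood test, adjusted p below 0.05 over all 18703 genes). Vegfb, Vegfc, Vegfd and Angpt1 were lower and Pgf was higher. Over all genes tested, 31.5% passed in this comparison, so calls were common throughout the transcriptome. The median log2 fold change of the members was -0.56, beside -0.033 for all genes tested. Under starvation, 5 of the 10 members also passed, all lower in NG2|EDmut cells, beside 38.0% of all genes. These were Vegfb, Vegfc, Vegfd, Angpt1 and Angptl4, and the median of the members was -0.94, beside -0.023 for all genes.

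**Figure D2:**
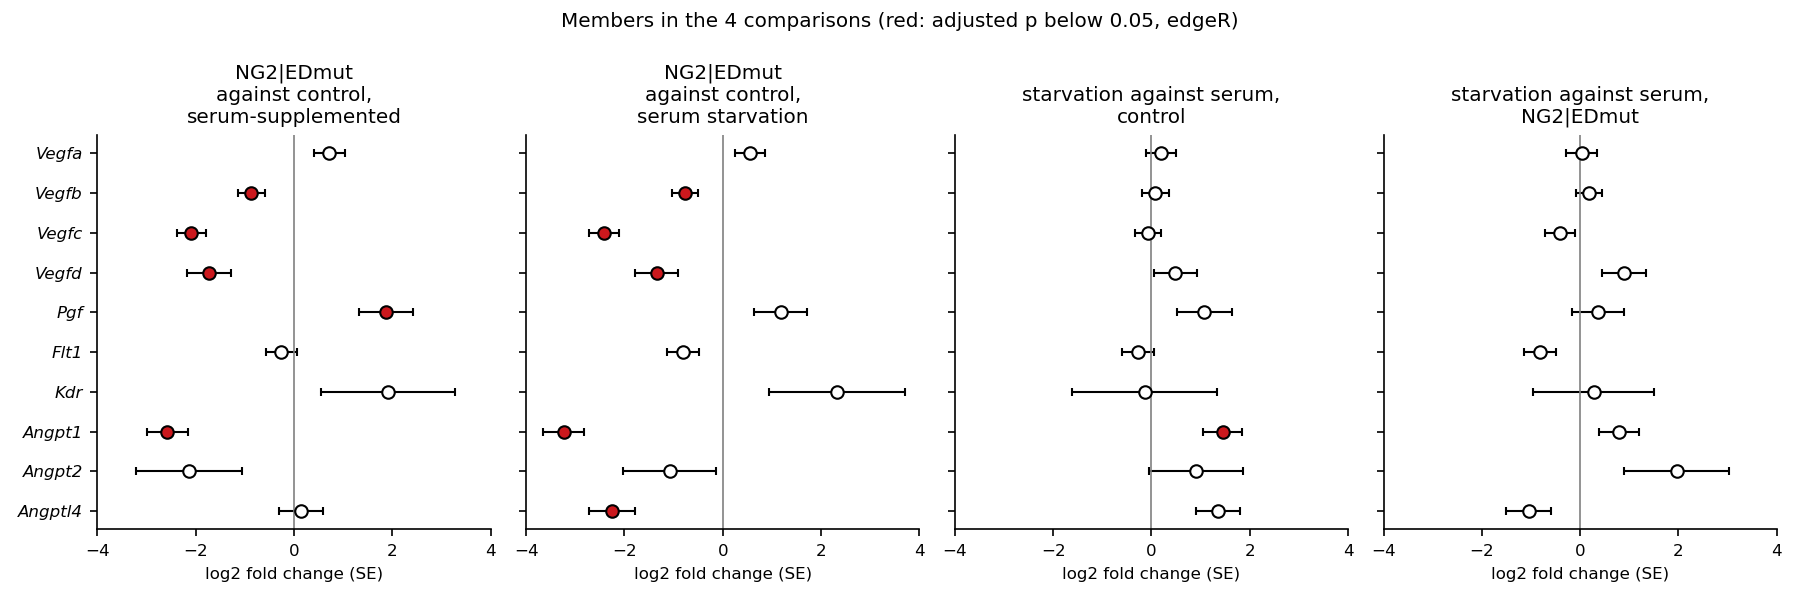
log2 fold changes of the 10 members with standard errors in the 4 pairwise comparisons, from the edgeR fit to all 12 libraries. Filled points have an adjusted p below 0.05. Vegfb, Vegfc, Vegfd and Angpt1 lie below 0 in both comparisons of the lines, and Angpt1 is the only member past the threshold between media.

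Angpt1 (ENSMUSG00000022309, chromosome 15, 42424723 to 42676977, minus strand, GRCm38), the TIE2 agonist made by supporting cells around vessels, showed the lowest fold change of the members in both comparisons of the lines. In serum it was at 2.85, 9.48 and 9.41 CPM in control cells and at 1.29, 0.715 and 1.63 CPM in NG2|EDmut cells. Under starvation it was at 18.4, 18.9 and 21.9 CPM in control cells and at 2.0, 2.47 and 1.81 CPM in NG2|EDmut cells. The lines did not overlap in either medium. Angpt1 fell by 2.58 on the log2 scale in serum (SE 0.42, 5.97-fold lower, edgeR adjusted p = 0.000651) and fell by 3.24 under starvation (SE 0.42, 9.43-fold lower, edgeR adjusted p = 8.83e-05). Leaving out control serum-supplemented replicate 1 gave -2.96 in serum (adjusted p = 4.64e-06). Angpt1 was also the only member called between media with all 12 libraries: starvation raised it by 1.45 in control cells (SE 0.39, 2.73-fold, edgeR adjusted p = 0.0221), beside 20.2% of all genes that passed in that comparison. Without control serum-supplemented replicate 1, the lowest of its group, the rise in control cells was 1.06 (edgeR adjusted p = 0.00737). The call in control cells was lost without control serum starvation replicate 1 (adjusted p = 0.0519) or replicate 3 (adjusted p = 0.0785), and with only the groups compared (adjusted p = 0.0954). In NG2|EDmut cells its log2 fold change on starvation was 0.79 (SE 0.41, edgeR adjusted p = 0.472). With all 12 libraries, the difference between the media effects in the 2 lines was -0.66 (SE 0.56, edgeR adjusted p = 0.591), so a difference between the lines in the response of Angpt1 to starvation was not shown.

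Angpt2, the antagonist, stayed under 0.41 CPM in all 12 libraries, between 0 and 23 estimated counts each. It was at 0.286, 0.0644 and 0.0996 CPM in control cells in serum, and at 0.0287, 0 and 0.0717 CPM in NG2|EDmut cells in serum. Its changes did not pass in any comparison (edgeR adjusted p between 0.154 and 0.752). Angpt1 exceeded Angpt2 in FPKM in every library, from 7.38-fold to 177-fold in the 11 libraries where Angpt2 was above 0, with few Angpt2 counts behind each ratio. The lowest were 7.38 in control serum-supplemented replicate 1 and 7.45 and 9.4 in starved NG2|EDmut replicates 1 and 2, while starved NG2|EDmut replicate 3 was at 64.0. The receptor gene Tek was at 0 in all 3 control libraries in serum and at most 0.212 CPM elsewhere.

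Vegfc (ENSMUSG00000031520, chromosome 8, 54077606 to 54187096, plus strand) was lower in NG2|EDmut cells in both media, at 22 to 41 estimated counts in each NG2|EDmut library. In serum it was at 1.78, 2.54 and 2.54 CPM in control cells and at 0.574, 0.447 and 0.588 CPM in NG2|EDmut cells. Under starvation it was at 2.59, 1.91 and 2.02 CPM in control cells and at 0.539, 0.390 and 0.286 CPM in NG2|EDmut cells. All 6 control libraries lay above all 6 NG2|EDmut libraries. Vegfc fell by 2.09 on the log2 scale in serum (SE 0.29, 4.26-fold lower, edgeR adjusted p = 0.00023) and fell by 2.42 under starvation (SE 0.30, 5.36-fold lower, edgeR adjusted p = 5.73e-05). No library left out in turn, and no other setting that could test Vegfc, ended either call. Serum starvation did not change it detectably in control cells (log2 fold change -0.07, SE 0.27) or in NG2|EDmut cells (-0.41, SE 0.30).

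Vegfd (ENSMUSG00000031380, chromosome X, 164373378 to 164402650, plus strand), the other lymphatic ligand, was lower in NG2|EDmut cells as well, but less evenly. In serum, control replicate 1 was at 1.60 CPM while replicates 2 and 3 were at 8.31 and 7.30 CPM, and NG2|EDmut cells were at 1.28, 1.66 and 2.24 CPM. The groups in serum overlapped because of that 1 control library. Under starvation, control cells were at 7.65, 8.44 and 8.10 CPM and NG2|EDmut cells at 3.10, 3.08 and 3.39 CPM, with no overlap. Vegfd fell by 1.73 in serum (SE 0.45, 3.32-fold lower, edgeR adjusted p = 0.0124) and fell by 1.34 under starvation (SE 0.44, 2.53-fold lower, edgeR adjusted p = 0.0314). Without control serum-supplemented replicate 1 these values were -2.18 (adjusted p = 7.76e-06) and -1.34 (adjusted p = 0.000108). The call in serum was lost without control replicate 2 (adjusted p = 0.0525) or NG2|EDmut replicate 1 (adjusted p = 0.0555), and the call under starvation was lost when any single starved library was left out (adjusted p 0.0705 to 0.0891). In edgeR the serum call was also lost with only the groups compared (adjusted p = 0.0638). The starvation call was also lost without a filter on low counts (edgeR adjusted p = 0.0506). On starvation of NG2|EDmut cells its level did not overlap that in serum, with a log2 fold change of 0.89 (SE 0.45) that passed only without control serum-supplemented replicate 1 or with those groups fitted alone (adjusted p = 0.0152 and 0.0232, against 0.452 with all 12 libraries). That comparison called 0 of the 10 members by edgeR with all libraries, beside 2.06% of all genes; 2 members, Flt1 and Angptl4, had an unadjusted p below 0.05. DESeq2 also called 0, as did limma-trend among the 5 members that passed its FPKM filter, which did not include Flt1 or Angptl4.

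Vegfb (ENSMUSG00000024962, chromosome 19, 6982473 to 6987651, minus strand), a ligand of VEGFR1 linked to fatty acid handling, was lower in NG2|EDmut cells in both media, by less than the lymphatic ligands. Control cells were at 20.7, 26.5 and 43.4 CPM in serum and at 24.6, 43.3 and 27.7 CPM under starvation. NG2|EDmut cells were at 16.7, 15.5 and 17.5 CPM in serum and at 22.3, 19.2 and 14.7 CPM under starvation. The lines did not overlap within a medium, and the spread among control libraries was wide. The highest control library of each medium, serum-supplemented replicate 3 and starvation replicate 2, also had the highest shares of estimated counts from ribosomal RNA genes (3.675% and 4.817%). NG2|EDmut serum-supplemented replicate 3 was at 3.175%, and all other libraries were at 0.4899% to 1.189%. Whether this share bears on the level of Vegfb was not tested. Vegfb fell by 0.87 in serum (SE 0.27, 1.82-fold lower, edgeR adjusted p = 0.0311) and fell by 0.77 under starvation (SE 0.27, 1.70-fold lower, edgeR adjusted p = 0.0439). Neither call held for every set of libraries or every model. In serum the call was lost without control replicate 3 (log2 fold change -0.51, adjusted p = 0.143) or without any of the 3 NG2|EDmut libraries in serum (adjusted p 0.0707 to 0.0979). Under starvation it was lost without any NG2|EDmut library, control starvation replicate 2 or 3, or control serum-supplemented replicate 2 (adjusted p 0.0502 to 0.208). The starvation call was also lost in edgeR without a filter on low counts (adjusted p = 0.0698) or with a replicate block (0.0744). Limma-trend lost it as well (0.052 on log2(FPKM + 1) and 0.0505 on log2(FPKM + 0.1)). In edgeR the serum call was lost with only the groups compared (0.0504) or with a replicate block (0.0543).

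Pgf (ENSMUSG00000004791, chromosome 12, 85166635 to 85177790, minus strand), which binds VEGFR1 but not VEGFR2, was the only member called higher in NG2|EDmut cells. Its level in serum was 2.59, 0.451 and 0.830 CPM in control cells and 5.36, 6.56 and 2.41 CPM in NG2|EDmut cells, and the groups overlapped. Under starvation it was at 2.89, 2.35 and 2.96 CPM in control cells and at 4.21, 5.59 and 8.76 CPM in NG2|EDmut cells, with no overlap. Pgf rose by 1.88 in serum (SE 0.55, 3.69-fold, edgeR adjusted p = 0.0223), and its log2 fold change under starvation was 1.18 (SE 0.54, edgeR adjusted p = 0.105). The call in serum was lost without control replicate 2 or 3 or without NG2|EDmut replicate 1 or 2 (adjusted p 0.0613 to 0.0831), and with only the groups compared (adjusted p = 0.0789). Under starvation Pgf passed in edgeR with only the groups compared (1.18, adjusted p = 0.00767) and with limma-trend on log2(FPKM + 1) (0.68, adjusted p = 0.0368). Without control serum-supplemented replicate 1 the differences were 2.90 (adjusted p = 0.000489) and 1.18 (adjusted p = 0.021), and starvation then raised Pgf by 2.10 in control cells (adjusted p = 0.00461, against 0.198 with all libraries).

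Vegfa (ENSMUSG00000023951, chromosome 17, 46016993 to 46032369, minus strand) was high in every NG2|EDmut library. In serum it was at 178, 178 and 160 CPM in NG2|EDmut cells, and at 176, 67.7 and 68.9 CPM in control cells. Under starvation it was at 165, 178 and 184 CPM in NG2|EDmut cells and at 152, 101 and 103 CPM in control cells. Control serum-supplemented replicate 1 was thus at the level of the NG2|EDmut libraries, and the groups in serum overlapped, while those under starvation did not. With all 12 libraries the log2 fold change between the lines was 0.72 in serum (SE 0.31, edgeR adjusted p = 0.0969) and 0.56 under starvation (SE 0.31, edgeR adjusted p = 0.179), and neither passed. Without control serum-supplemented replicate 1, edgeR gave 1.33 in serum (adjusted p = 4.84e-05) and 0.56 under starvation (adjusted p = 0.0058). In that setting starvation also raised Vegfa by 0.80 in control cells (adjusted p = 0.00211, against 0.19, SE 0.31, and adjusted p = 0.723 with all libraries), and the interaction of line and starvation was -0.77 (adjusted p = 0.0219, against 0.893 with all libraries). The Vegfa calls between the media and in the interaction appeared in no other alternative. Between the lines the call also turned on the model. With all 12 libraries kept, it passed in serum with limma-trend (0.85 on log2(FPKM + 1), adjusted p = 0.044, and 0.88 on log2(FPKM + 0.1), adjusted p = 0.0438). Under starvation it passed in edgeR with only the groups compared (0.57, adjusted p = 0.0183), a fit that leaves out all serum-supplemented libraries.

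**Figure D3:**
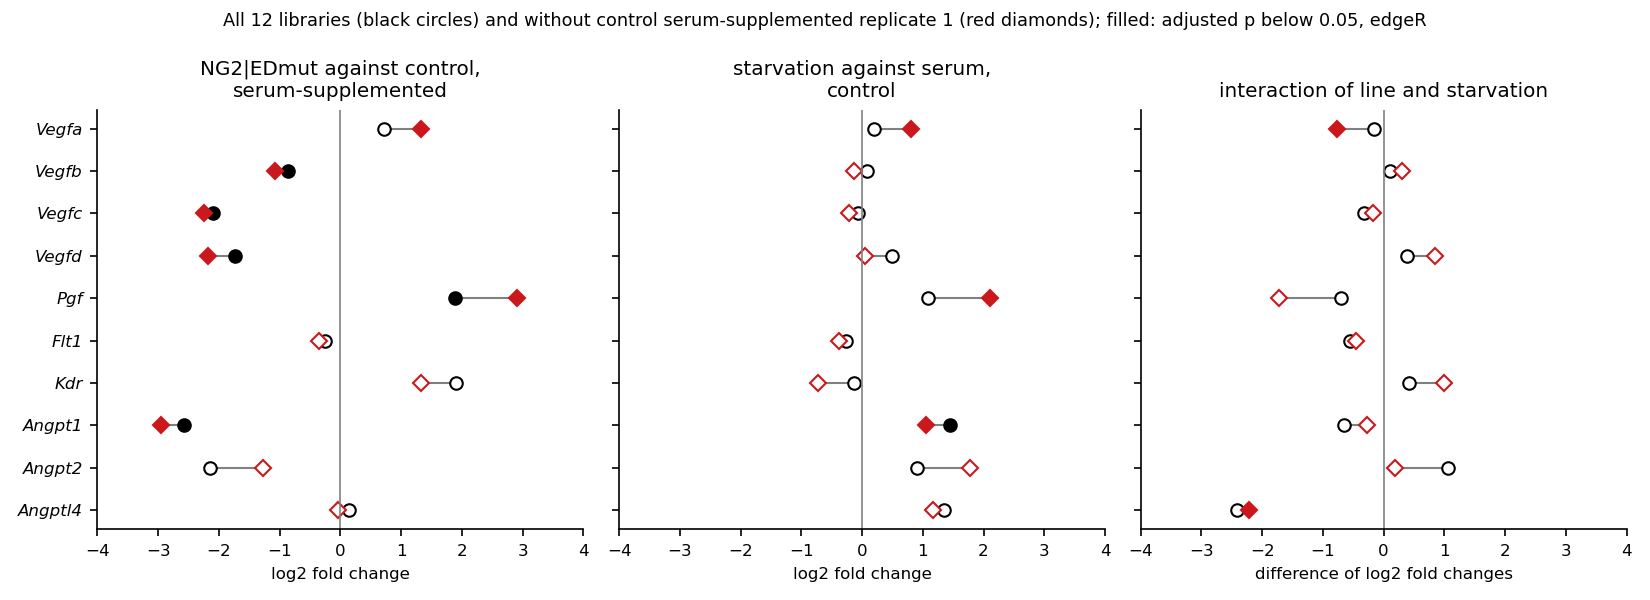
log2 fold changes of the 10 members with all 12 libraries (black circles) and without control serum-supplemented replicate 1 (red diamonds), in the comparison of the lines in serum, in the starvation response of control cells and in the interaction of line and starvation. Filled symbols have an edgeR adjusted p below 0.05. Vegfa moves from 0.72 to 1.33, from 0.19 to 0.80 and from -0.16 to -0.77, and is past the threshold without that library.

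The mixture of VEGF ligand transcripts differed in makeup between libraries of the lines. On FPKM, Vegfa made up 69.6% to 76.5% of the summed ligand transcript in the 6 NG2|EDmut libraries and 33.9% to 63.3% in control libraries other than serum-supplemented replicate 1, which was at 73.1%. Vegfb made up 16.2% to 25.1% in NG2|EDmut libraries and 22.9% to 57.0% in control libraries. Vegfc and Vegfd together were minor everywhere: Vegfd reached 9.33% in control serum-supplemented replicate 2 and at most 2.47% in NG2|EDmut libraries. Pgf was at 1.63% to 5.32% in NG2|EDmut libraries and at 0.406% to 2.18% in control libraries. The summed ligand level was 46.8 to 54.1 FPKM in NG2|EDmut libraries and 34.1 to 53.2 FPKM in control libraries. These shares are descriptions and were not tested.

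**Figure D4:**
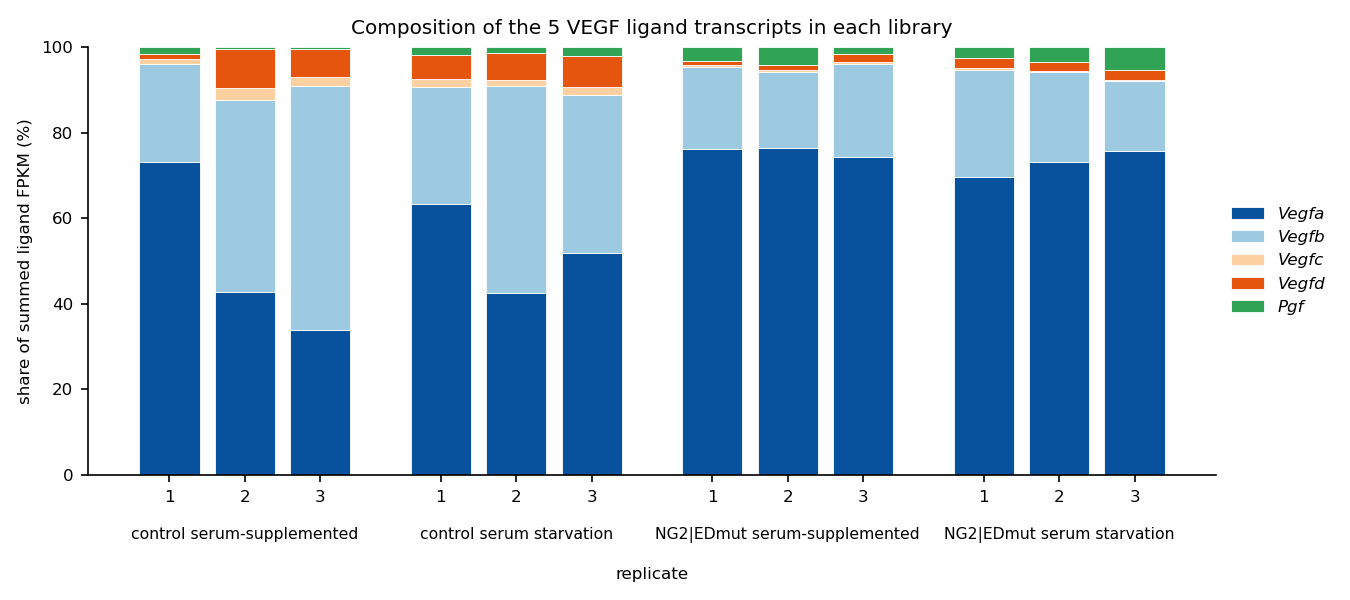
Share of each VEGF ligand in the summed FPKM of the 5 ligands, as stacked bars per library (percent). Vegfa holds at least 69.6% in each NG2|EDmut library, and control serum-supplemented replicate 1 holds 73.1%, above the other control libraries.

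Angptl4 (ENSMUSG00000002289, chromosome 17, 33773750 to 33781830, minus strand) was the member whose difference between the lines changed most with medium. In serum it was at 0.617, 0.918 and 1.01 CPM in control cells and at 0.790, 1.58 and 0.430 CPM in NG2|EDmut cells, and the groups overlapped. Under starvation it was at 2.35, 2.58 and 1.58 CPM in control cells and at 0.379, 0.309 and 0.663 CPM in NG2|EDmut cells, with no overlap. The log2 fold change between the lines was 0.14 in serum (SE 0.45, edgeR adjusted p = 0.841), and Angptl4 fell by 2.26 under starvation (SE 0.47, 4.80-fold lower, edgeR adjusted p = 0.00246). On starvation its log2 fold change was 1.35 in control cells (SE 0.45, edgeR adjusted p = 0.0546, no overlap) and -1.05 in NG2|EDmut cells (SE 0.46, edgeR adjusted p = 0.365). The interaction, the difference between the line effects in the media, was -2.41 (SE 0.65, edgeR adjusted p = 0.0597) and missed the threshold. It passed with DESeq2 (-2.39, adjusted p = 0.00969), with a filter of 10 counts in every library (adjusted p = 0.0476), with counts divided by 4 (adjusted p = 0.0454), on leaving out control serum-supplemented replicate 1 (-2.22, adjusted p = 0.0376) or NG2|EDmut serum-supplemented replicate 3 (-2.70, adjusted p = 0.0407). Across the 10 members the interaction called 0 by edgeR, beside 4.39% of all genes; 1 member, Angptl4, had an unadjusted p below 0.05, DESeq2 called 1, and limma-trend, whose FPKM filter left 5 members and removed Angptl4, called 0. The response of Angptl4 in control cells passed with DESeq2, with both of those count settings, and without NG2|EDmut serum-supplemented replicate 2 or 3 (adjusted p 0.0244 to 0.0457).

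Transcripts of Flt1 and Kdr were scarce. Flt1 (ENSMUSG00000029648, chromosome 5, 147561604 to 147726011, minus strand) was at 2.29, 3.75 and 2.06 CPM in control cells in serum, at 2.41, 1.45 and 2.85 CPM in starved control cells, at 2.18, 2.08 and 2.51 CPM in NG2|EDmut cells in serum and at 0.947, 1.71 and 1.17 CPM in starved NG2|EDmut cells. It was lowest in starved NG2|EDmut cells, which did not overlap their serum-supplemented counterparts (log2 fold change -0.82, SE 0.32, edgeR adjusted p = 0.285). Against starved control cells the log2 fold change was -0.81 (SE 0.32, edgeR adjusted p = 0.067), which passed without control starvation replicate 2 (adjusted p = 0.0281), NG2|EDmut starvation replicate 2 (0.0426) or control serum-supplemented replicate 2 (0.0496). Kdr had 0 estimated counts in 4 of the 6 control libraries, with 8 and 7 in the others, and 8 to 18 in each NG2|EDmut library. No comparison of Kdr passed with all libraries (edgeR adjusted p between 0.213 and 0.98). The call that appeared without control starvation replicate 2 (adjusted p = 0.0345) compared against a group left with 0 counts.

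Among the receptors outside the 10 members, the neuropilins were the abundant ones. Neuropilin 1 and neuropilin 2 are co-receptors that bind VEGF ligands and semaphorins. Nrp2 averaged 666 ± 151 CPM in control cells in serum and 1140 ± 95.9 CPM in NG2|EDmut cells, and 272 ± 71.0 against 1290 ± 82.4 CPM under starvation (SD, n = 3). Its log2 fold change in NG2|EDmut against control cells was 0.78 in serum (SE 0.20, edgeR adjusted p = 0.0118) and 2.24 under starvation (SE 0.21, edgeR adjusted p = 6.58e-06). Nrp1 rose by 1.13 in serum (SE 0.14, edgeR adjusted p = 7.5e-05) and by 0.90 under starvation (SE 0.14, edgeR adjusted p = 0.000246). Of the 6 receptors and co-receptors listed beside the members, 3 were higher and 0 lower in NG2|EDmut cells in serum, and 2 were higher and 0 lower under starvation. Over all genes tested, 31.5% passed in serum and 38.0% under starvation, in either direction. The third receptor called in serum was Tie1, at 0 in all control libraries and at most 0.344 CPM in NG2|EDmut libraries (edgeR adjusted p = 0.0416, and 0.0629 without control serum-supplemented replicate 1). Without that library, 2 of the 6 were higher in serum and 3 under starvation. The median log2 fold change of the list was 0.95 in serum and 0.50 under starvation.

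Of the other secreted angiogenic factors that were called, most were lower in NG2|EDmut cells. Of 14 tested, 6 were lower, 1 higher and 7 not called in serum, and 9 were lower, 0 higher and 5 not called under starvation, beside 31.5% and 38.0% of all genes called, with list medians of -1.48 and -2.05 on the log2 scale. Without control serum-supplemented replicate 1, 8 of 15 were lower and 1 higher in serum, and 9 were lower and 0 higher under starvation. Fgf2, the basic fibroblast growth factor, fell by 2.20 in serum (SE 0.16, edgeR adjusted p = 2.32e-06) and fell by 2.54 under starvation (SE 0.16, edgeR adjusted p = 4.91e-07). Ptn, the heparin-binding factor pleiotrophin, fell by 4.93 in serum (SE 0.48, edgeR adjusted p = 1.57e-05) and fell by 5.56 under starvation (SE 0.49, edgeR adjusted p = 4.3e-06). In the angiopoietin family outside the members, Angpt4 fell by 4.46 in serum and fell by 4.0 under starvation (SE 0.50 and 0.49, edgeR adjusted p = 4.68e-05 and 5.83e-05), and Angptl6 rose by 2.05 and 1.95 (SE 0.55 each, edgeR adjusted p = 0.0141 in each). The inhibitors of angiogenesis went both ways in serum, with 6 of 14 higher and 4 lower, and were mostly lower under starvation, with 1 higher and 8 lower (list medians 0.21 and -0.60). In serum, 6 inhibitors were higher and 5 lower without control serum-supplemented replicate 1.

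Genes that respond to low oxygen were counted because Vegfa and Angptl4 belong with them. Of 17 tested hypoxia target genes, 7 were higher and 2 lower in NG2|EDmut cells in serum, and 10 were higher and 2 lower under starvation, with list medians of 0.10 and 0.41, beside 31.5% and 38.0% of all genes called in either direction. In serum, 7 of 18 were higher and 5 lower without control serum-supplemented replicate 1, the added ones being Pgk1, Ldha and Ankrd37. The glucose transporter gene Slc2a1 rose by 1.36 in serum (SE 0.14, edgeR adjusted p = 2.61e-05) and by 1.52 under starvation (SE 0.14, edgeR adjusted p = 6.33e-06). Among 10 HIF and oxygen sensing genes, 1 was higher and 2 lower in serum, and 1 was higher and 5 lower under starvation (list medians -0.23 and -0.26). Arnt2, a HIF partner, fell by 1.46 in serum and fell by 1.49 under starvation (SE 0.17 each, edgeR adjusted p = 6.71e-05 and 3.41e-05). Of 12 tested genes of the ANGPTL4 axis, PPAR factors and their targets with lipoprotein lipase, 2 were higher and 3 lower in serum, and 1 was higher and 5 lower under starvation (list medians 0.07 and -0.67). Pdk4, a PPAR target that restrains glucose oxidation, fell by 0.73 in serum (SE 0.21, edgeR adjusted p = 0.0197) and fell by 2.03 under starvation (SE 0.22, edgeR adjusted p = 1.92e-05). Pparg fell by 0.51 in serum (SE 0.16, edgeR adjusted p = 0.0314, and 0.0769 without control serum-supplemented replicate 1) and fell by 1.06 under starvation (SE 0.17, edgeR adjusted p = 0.000338). Of 8 factors that bind and stabilize or destabilize VEGF mRNA, 1 was higher and 1 lower in serum, and 2 were higher and 3 lower under starvation, the latter led by Zfp36, which fell by 1.63 (SE 0.15, edgeR adjusted p = 4.99e-06). Of 20 signal transducers downstream of VEGF receptors, 7 were higher and 1 lower in serum, and 6 were higher and 2 lower under starvation, shares near those of all genes. Under starvation, 5 of these transducers were lower without control serum-supplemented replicate 1. Leaving out that library also gave 2 HIF and oxygen sensing genes higher and 2 stability factors lower in serum.

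Between media, calls over all genes were fewer than between the lines (20.2% in control and 2.06% in NG2|EDmut cells). This did not hold for every list. Of 8 stability factors, 2 rose and 2 fell in control cells, and of the 6 receptors and co-receptors 1 rose and 2 fell. Of the 17 hypoxia target genes, 3 rose in control cells and 4 in NG2|EDmut cells, and 0 fell in either line. In the ANGPTL4 axis, 3 of 12 rose in control cells, while 2 fell in NG2|EDmut cells, namely Pparg and Pdk4. Without control serum-supplemented replicate 1, the hypoxia targets that passed in control cells were 7 higher and 1 lower of 18, and in NG2|EDmut cells 8 higher and 0 lower of 18.

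The genes whose levels followed those of 3 members most closely were found by Pearson's r of log2(CPM + 1) over the 12 libraries, which share groups, so r is a description only. For Angpt1 these were Txndc5 (r = 0.986), Pam (r = 0.985) and Clu (r = 0.983). Clu, which encodes the secreted chaperone clusterin, averaged 34.2 and 69.1 CPM in control cells in serum and under starvation, and 15.6 and 15.9 CPM in NG2|EDmut cells. For Angptl4 they were Ip6k3 (r = 0.952), Dmrta2 (r = 0.911) and Epha1 (r = 0.907), all at low levels. For Flt1 they were Gabpa (r = 0.915), Mcm9 (r = 0.902) and Bicc1 (r = 0.900).

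Summed levels of other cell types' markers differed between the lines, mostly through a few genes. The 8 macrophage markers summed to 40.7 to 116 CPM in control libraries and to 8.23 to 20.3 CPM in NG2|EDmut libraries, mostly from Lyz2, while Ptprc, the common leukocyte antigen, was at most 0.143 CPM. The 8 pericyte markers, led by Acta2, summed to 1740 to 5410 CPM in control libraries and to 941 to 1880 CPM in NG2|EDmut libraries. In control cells in serum, Acta2 was at 1340, 4400 and 5050 CPM, so that replicate 1 was again apart. The endothelial markers summed to 41.8 to 54.3 CPM in control libraries and to 60.1 to 70.5 CPM in NG2|EDmut libraries, and Vwf, the gene of von Willebrand factor, was at 0.322 to 1.54 CPM in the former and at 3.93 to 9.20 CPM in the latter. Between the lines, 1 of 5 tested macrophage markers was lower in each medium, and 3 of 13 endothelial markers were higher in each medium. Of 7 pericyte markers, 1 was higher and 2 lower in serum, and 1 was higher and 1 lower under starvation. Over all genes tested, 31.5% passed in serum and 38.0% under starvation. Without control serum-supplemented replicate 1, the endothelial markers higher were 2 of 14 in serum and 5 of 14 under starvation. The pericyte markers were then 2 higher and 1 lower in serum, and 2 higher and 2 lower under starvation. Between media, 1 endothelial marker was higher and 1 pericyte marker lower in control cells, beside 20.2% of all genes called. In NG2|EDmut cells 0 of these 3 lists' markers were called, beside 2.06% of all genes. Starvation of control cells, without control serum-supplemented replicate 1, called 3 pericyte markers higher and 2 lower, and 1 endothelial marker higher and 2 lower. The part of these markers in the differences of the members was not tested.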

How the data were processed

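Poly(A) TruSeq Stranded libraries were sequenced on an Illumina NovaSeq, and the authors mapped reads with HISAT2, assembled and quantified transcripts with StringTie, compared transcriptomes with gffcompare and used edgeR, after FastQC. Versions, read length and strand setting were not stated in the sources used here. The authors deposited estimated counts per gene, derived from StringTie coverage and already whole, and FPKM values from the same coverage. One unit of estimated count is not 1 read, so no limit is given for a value of 0, and without a stated strand setting overlapping antisense genes cannot be separated. Gene positions of all 10 members match GRCm38.

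The 10 members and all lists were chosen with earlier results of these data known. edgeR 4.0.16 (R 4.3.3) was run with filterByExpr, TMM and the quasi-likelihood test, fitting a mean for each of the 4 groups to the 12 libraries together, with 8 residual and 3.91 prior degrees of freedom, and Benjamini-Hochberg adjustment over 18703 genes at 0.05. CPM are estimated counts scaled by effective library size. The study calls the 3 libraries of a group biological replicates of each line. Separate animals or cultures are not named, so the p-values measure the spread between these libraries, which may be partly technical. From each list, up to 3 genes with the smallest p among those called are eligible to be named. Scripts were tested on simulated counts. Alternatives were RLE size factors, DESeq2 1.42.0, no filter, a minimum of 10 counts per library, a minimum fold change of 1 on the log2 scale, a fit to only the compared groups, a replicate block, limma-trend (limma 3.58.1) on log2(FPKM + 1) and log2(FPKM + 0.1) of genes with an FPKM of at least 1 in at least 3 libraries, which kept 5 members, counts divided by 4, and leaving out each library. For the lists, leaving out control serum-supplemented replicate 1 was chosen after seeing the data. Promoter windows come from RefSeq (GRCm38.p6).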

Additional observations from a re-analysis of the deposited data

Results flagged for a closer look

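No member's line effect differed between the media past the threshold with all 12 libraries. Among the listed genes, 14 are named here because they passed, at most 3 from each list, so 14 is not a share of the genes tested. By list, calls ranged from 0 of 3 tested in the angiopoietin-like family to 1 higher and 3 lower of 14 inhibitors. Over all genes tested, 4.39% passed. Without control serum-supplemented replicate 1, 3901 genes passed, against 821 with all 12 libraries. edgeR's test of the interaction subtracts the log2 line effect in serum from that under starvation. The difference was positive for the co-receptor gene Nrp2 (1.47), the stress gene Ddit4 (1.06) and the semaphorin gene Sema3a (1.64). It was negative for the oxygen sensor gene Egln3 (-1.40), for Mxi1 (-0.85), and for the PPAR targets Pdk4 (-1.30) and Cpt1a (-1.06). The secreted factors Ccn2 (-1.29) and Ccn1 (-1.53), the inhibitors Spry2 (-1.93) and Thbs1 (-1.10), the adaptor gene Nck1 (-0.66), and the mRNA decay factors Zfp36l2 (-1.44) and Zfp36 (-1.33) were also negative. These are given as values.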

How the results depend on the processing

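The calls for Vegfc and Angpt1 between the lines held, in both media, in every alternative that could test them. Of the 10 members, 5 were called between the lines in serum, and 2 to 6 when a library was left out, or 2 with only the groups compared. Under starvation 5 were called, 3 to 7 with a library left out, 3 without a filter on low counts, and, of the 5 members that passed the FPKM filter of limma-trend, 3 on log2(FPKM + 1) and 2 on log2(FPKM + 0.1). Vegfc and Angptl4 were not among those 5, so their calls were not tested there. Starvation of control cells called 1 member, 0 to 3 with a library left out, 2 with DESeq2, with at least 10 counts in every library and with counts divided by 4, and 0 with only the groups compared. Starvation of NG2|EDmut cells called 0, 0 to 1 with a library left out and 2 with only the groups compared. The interaction called 0, 0 to 2 with a library left out, and 1 with DESeq2, with at least 10 counts in every library and with counts divided by 4. No called member reversed its direction in any alternative.

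Replicate numbers did not pair the libraries: 4 of 18 same-numbered pairs correlated above 0.1 (r from -0.328 to 0.303). With the replicate block, 5 members were called in serum and 4 under starvation, with Vegfa at 0.83 (adjusted p = 0.0433) and Vegfb at -0.85 (adjusted p = 0.0543) in serum, and 241 genes on starvation of NG2|EDmut cells and 443 in the interaction, against 385 and 821 without it. Counts of all genes moved by over 1.5 times as well. Restricting calls to changes of at least 1 on the log2 scale left 2711 and 3432 genes between the lines in serum and under starvation, and 1437 and 177 on starvation of control and NG2|EDmut cells. With only the groups compared, starvation called 795 genes in control and 2760 in NG2|EDmut cells. DESeq2 called 895 genes on starvation of NG2|EDmut cells and 1604 in the interaction. Without control serum-supplemented replicate 1, starvation called 6390 genes in control and 1453 in NG2|EDmut cells, and the interaction called 3901. Other libraries left out lowered the counts: to 2225 and 2461 on starvation of control cells without control serum-supplemented replicate 2 or control serum starvation replicate 3, to 136 to 247 on starvation of NG2|EDmut cells without any NG2|EDmut library, and in the interaction to 339 to 415 without any NG2|EDmut library and to 437, 544 and 428 without control serum-supplemented replicate 2, control serum starvation replicate 2 or 3. The causes were not tested. Depth limits Kdr and Angpt2, which had few counts in every library.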
